A study of Rattus norvegicus with 16 samples.

Results

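Eln, Dpt, Fmod and Cthrc1 encode proteins that build or organize extracellular matrix, and they are 4 of the 32552 genes counted in rat abdominal wall beneath an implant. They were chosen by their measured levels in these libraries: Eln and Dpt were selected on the contrast of the implants at both times, and Fmod and Cthrc1 on that of day 14. Their implant differences are therefore given as a description with no test, and only the change from day 3 to day 14 averaged over both implants is tested. The choice did not use that contrast. It did use the same libraries, and the spread between libraries differed between groups, so the tested change is not fully independent of the choice.

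The 16 bulk RNA-seq libraries came from the abdominal wall of female Sprague Dawley rats aged 12 weeks and fall into 4 groups of 4: adhesive and non-adhesive implants 14 days after implantation, and adhesive and non-adhesive implants 3 days after it. The adhesive implant is a polyurethane mock device with a layer that bonds to wet tissue. The non-adhesive implant is the same object swollen in buffered saline before implantation, so that it no longer bonds, and it was held in place with sutures, which are thus part of every implant comparison here. All groups carried an implant, and no native tissue was analysed here. Whether every library is a rat of its own is not stated in the sources, and the spread behind each p-value is that between libraries, part of which may be technical.

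Elastin, the product of Eln, is the core protein of elastic fibres. It is secreted as a soluble precursor, laid on a microfibril scaffold and crosslinked by lysyl oxidases. Dermatopontin, the product of Dpt, is a small secreted matrix protein that binds decorin and takes part in the assembly of collagen fibrils. Fibromodulin, the product of Fmod, is a small leucine-rich proteoglycan that binds collagen fibrils and influences their diameter. Cthrc1 encodes collagen triple helix repeat containing 1, a protein secreted by activated fibroblasts of injured arteries and healing wounds. In wounds and around implants, fibroblasts deposit such a matrix after the first inflammatory phase.

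Of the 4 members, only Dpt and Fmod had an entry in the RefSeq promoter table of rat assembly GRCr8. The 250 bases before the start of each are shown for that reason. Eln and Cthrc1 had no entry and are named only. Capitals mark matches to the motifs searched on both strands, which were TATAAA (the TATA box), GGGCGG (the Sp1 box), CAGAC (a Smad-binding element), CATTCC (a TEAD site) and TGANTCA (an AP-1 site). The sequences run 5′ to 3′ on the + strand, at chr13:79656091-79656340 for Dpt and at chr13:48045317-48045566 for Fmod.
Dpt: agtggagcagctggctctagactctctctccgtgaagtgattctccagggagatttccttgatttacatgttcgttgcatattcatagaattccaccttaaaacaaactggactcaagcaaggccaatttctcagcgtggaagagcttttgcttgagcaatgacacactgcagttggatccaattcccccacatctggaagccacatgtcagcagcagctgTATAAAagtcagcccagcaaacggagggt
Fmod: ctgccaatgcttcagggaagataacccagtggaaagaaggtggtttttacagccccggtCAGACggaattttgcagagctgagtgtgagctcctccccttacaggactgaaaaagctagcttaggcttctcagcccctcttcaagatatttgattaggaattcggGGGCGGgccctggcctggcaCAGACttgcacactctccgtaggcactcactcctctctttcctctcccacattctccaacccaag
In the Dpt window, TATAAA begins 29 bases before the start, and 12.9% of the 33469 promoters of this length hold that motif. The Fmod window holds GGGCGG, found in 30.5% of promoters, beginning 85 bases before the start, and CAGAC, found in 42.9%, at 191 and 65 bases. CATTCC (12.1% of promoters) and TGANTCA (6.34%) had no match in either window. These matches describe letters in the windows and nothing about binding.

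In the count files, all 4 genes lie on the + strand and no other counted gene overlaps them. Eln (ENSRNOG00000001469) spans positions 24978483 to 25021863 of chromosome 12. Dpt (ENSRNOG00000002947) and Fmod (ENSRNOG00000003183) are both on chromosome 13, at 83073544 to 83102401 and at 50873605 to 50885563, and Cthrc1 (ENSRNOG00000004578) is on chromosome 7 at 77966722 to 77977004. The sources disagree on the genome build behind these coordinates, so none is named for them, and they are not comparable with the GRCr8 positions above. All 4 genes passed the filter on low counts in every fit.

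Library totals ran from 13852126 to 24858976 counts, and every day 14 library was shallower than every day 3 library (at most 16801635 against at least 18616084 counts). Day can therefore not be told apart from library depth. The paper describes a single lane of a flow cell, and whether the days were sequenced apart is not stated. The tissue label fits its markers: the skeletal muscle genes Mb and Eno3, 2 of 20 listed markers with a symbol, were detected in every library, and no marker of any list was at 0. Levels are given as CPM, the counts of a gene per 1000000 counts of its library after scaling by trimmed mean of M values (TMM), a normalization to the bulk of genes. The summed level of Mb and Eno3 was 12100 to 20960 CPM at adhesive and 8184 to 21890 CPM at non-adhesive implants on day 14, and 1536 to 3660 CPM and 1063 to 5105 CPM on day 3, so muscle RNA rose with day alongside genes described here, and its part in their levels was not tested. None of 8 mesothelial markers had a symbol. In bulk tissue, fewer cells of a type and less RNA per cell cannot be told apart.

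Adhesive implants had less Eln than non-adhesive implants at both times, and its 3 highest levels were beneath non-adhesive implants on day 14. On day 14, it measured 57.9, 192.7, 156.6 and 75.8 CPM at adhesive implants (replicates 1 to 4), against 488.6, 1188, 1633 and 248.5 CPM at non-adhesive implants. On day 3, it measured 59.5, 49.9, 76.4 and 133.7 CPM at adhesive implants, against 277.5, 147.7, 164.9 and 208.4 CPM at non-adhesive implants. The groups did not overlap on either day. Non-adhesive replicate 4 on day 14 was the lowest of its group, and the mean of the other 3 libraries was 4.44 times its level.

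Means for Eln were 120.7 ± 64.4 CPM at adhesive implants and 889.4 ± 635.9 CPM at non-adhesive implants on day 14, and 79.9 ± 37.5 CPM at adhesive implants and 199.6 ± 57.9 CPM at non-adhesive implants on day 3 (SD, n = 4 each). The log2 difference of adhesive over non-adhesive in edgeR was -2.88 (SE 0.65) on day 14 and -1.31 (SE 0.35) on day 3. By the ratio of means, Eln was 7.37-fold lower at adhesive implants on day 14, and 9.14-fold lower without non-adhesive replicate 4.

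Adhesive implants also had less Dpt on average, and every library of day 14 held more Dpt than every library of day 3 with the same implant. On day 14, Dpt measured 156.6, 491.8, 263.8 and 193.5 CPM at adhesive implants, against 689.6, 1254, 1322 and 336.1 CPM at non-adhesive implants. On day 3, Dpt measured 70.7, 68.9, 56.9 and 140.6 CPM at adhesive implants, against 154.0, 206.1, 188.3 and 198.2 CPM at non-adhesive implants. On day 14 the groups overlapped, since non-adhesive replicate 4 lay below adhesive replicate 2, and without that non-adhesive library they did not. On day 3 they were apart.

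Group means for Dpt were 276.4 ± 150.3 CPM at adhesive implants and 900.4 ± 471.0 CPM at non-adhesive implants on day 14, and 84.3 ± 38.0 CPM at adhesive implants and 186.6 ± 23.0 CPM at non-adhesive implants on day 3 (SD, n = 4 each). The log2 difference between implants was -1.70 (SE 0.51) on day 14 and -1.13 (SE 0.29) on day 3.

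Fmod was the least abundant of the 4, and its highest mean was at non-adhesive implants on day 14. On day 14, Fmod measured 3.79, 7.05, 3.40 and 6.98 CPM at adhesive implants, against 17.0, 32.4, 37.7 and 22.8 CPM at non-adhesive implants. On day 3, Fmod measured 5.29, 4.22, 5.50 and 4.26 CPM at adhesive implants, against 25.9, 7.65, 7.27 and 4.78 CPM at non-adhesive implants. The groups did not overlap on day 14 and overlapped on day 3. On day 3 a single library, non-adhesive replicate 1, had 3.94 times the mean of the other 3 of its group.

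For Fmod, means were 5.30 ± 1.98 CPM at adhesive implants and 27.4 ± 9.32 CPM at non-adhesive implants on day 14, and 4.82 ± 0.672 CPM at adhesive implants and 11.4 ± 9.73 CPM at non-adhesive implants on day 3 (SD, n = 4 each). The log2 difference between implants was -2.36 (SE 0.34) on day 14, and it lay between -2.53 and -2.17 whichever day 14 library was left out. On day 3 it was -1.26 (SE 0.50), and -0.44 without non-adhesive replicate 1.

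Cthrc1 followed Eln more than the other members. On day 14, Cthrc1 measured 5.41, 28.8, 26.6 and 15.99 CPM at adhesive implants, against 108.8, 188.9, 159.5 and 20.3 CPM at non-adhesive implants. On day 3, Cthrc1 measured 7.02, 11.5, 7.51 and 22.7 CPM at adhesive implants, against 30.7, 20.8, 45.7 and 33.4 CPM at non-adhesive implants. The groups overlapped on both days through replicate 4, which was low at non-adhesive implants on day 14 and high at adhesive implants on day 3. Without those libraries neither day overlapped.

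Cthrc1 averaged 19.2 ± 10.8 CPM at adhesive implants and 119.3 ± 73.9 CPM at non-adhesive implants on day 14, and 12.2 ± 7.30 CPM at adhesive implants and 32.6 ± 10.3 CPM at non-adhesive implants on day 3 (SD, n = 4 each). The log2 difference between implants was -2.63 (SE 0.70) on day 14 and -1.40 (SE 0.41) on day 3.

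**Figure D1:**
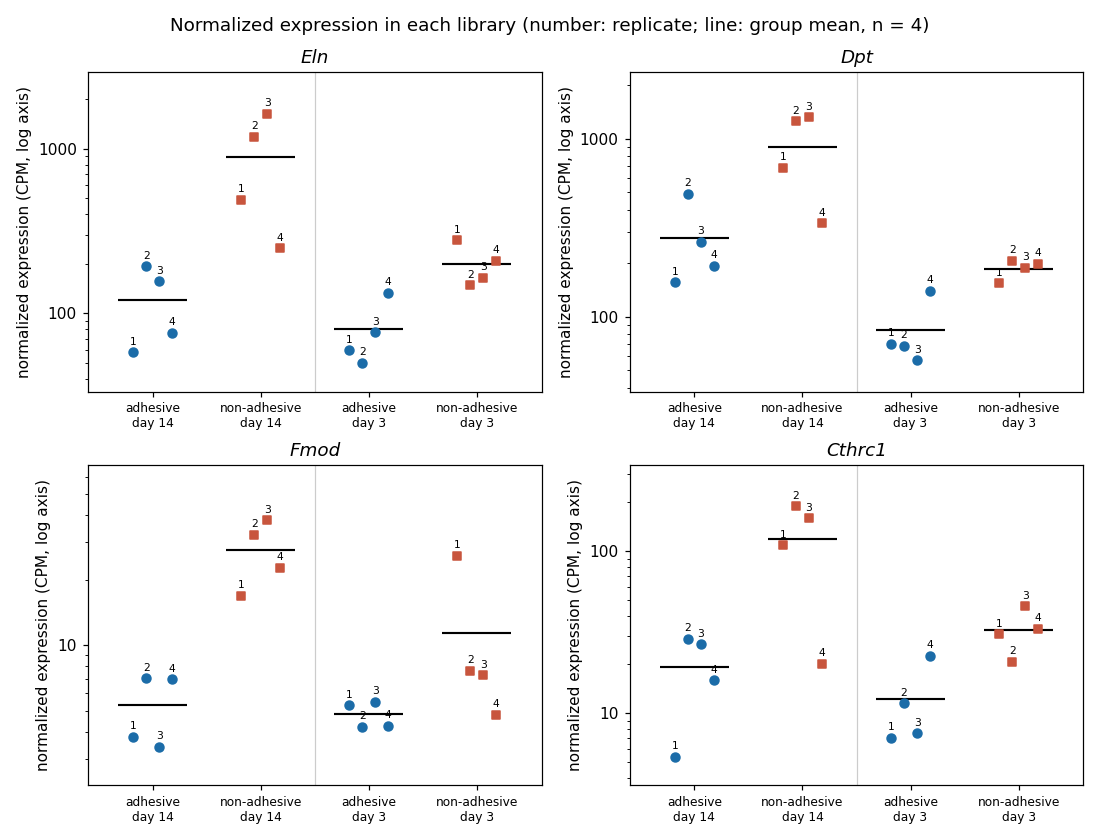
Normalized expression of Eln, Dpt, Fmod and Cthrc1 in each of the 16 libraries (CPM after TMM scaling, log axis), by implant and day. Blue circles are adhesive and red squares non-adhesive implants, numbers are replicates and black lines are group means (n = 4). Non-adhesive implants on day 14 have the highest mean in all 4 panels, with replicate 4 low for Eln, Dpt and Cthrc1 but at 22.8 CPM for Fmod.

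Across all genes, 625 (4.28%) had every adhesive library below every non-adhesive library on day 14, and 403 (2.76%) on day 3. Among the members, Eln and Fmod were so placed on day 14 and Eln and Dpt on day 3, which the choice of members partly set. In the fit of all genes (edgeR quasi-likelihood test, Benjamini-Hochberg adjusted p of at most 0.05 and an absolute log2 fold change of at least 1), 36 of 13557 genes (0.266%) were called between implants on day 14 and 0 of 14223 (0.0%) on day 3. On day 3, 1022 genes had an unadjusted p under 0.05 in edgeR, and DESeq2 called 69 genes.

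Between genes, levels were set per kilobase of exon (RPKM from the same scaled counts). At non-adhesive implants on day 14, Dpt averaged 426.7 RPKM, Eln 247.9 RPKM, Cthrc1 98.1 RPKM and Fmod 7.74 RPKM, which placed them at ranks 191, 339, 763 and 6697 of 14601 genes. At adhesive implants on day 14, the levels were 131.0 RPKM for Dpt, 33.7 RPKM for Eln, 15.8 RPKM for Cthrc1 and 1.495 RPKM for Fmod. The order Dpt, Eln, Cthrc1, Fmod was the same in all 4 groups. Fmod was at percentile 54.1 of genes at most, whereas Dpt was at percentile 87.4 or above in every group.

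Ordered by mean log2 CPM, the groups of Eln, Fmod and Cthrc1 ran from adhesive day 3, through adhesive day 14 and non-adhesive day 3, to non-adhesive day 14. Adhesive day 3 and adhesive day 14 did not differ beyond the spread of their libraries for these 3 genes, with steps of 0.53, 0.07 and 0.56 log2 units against pooled SDs of 0.73, 0.41 and 0.95, for Eln, Fmod and Cthrc1 in turn. The other steps of these 3 genes exceeded the pooled SD, a spread of single libraries and no test, yet libraries overlapped at each step. That of Fmod from adhesive day 14 to non-adhesive day 3 exceeded it narrowly (0.85 against 0.83). Non-adhesive replicate 1 of day 3, far above its group for Fmod, entered that step. Dpt had a different order, with non-adhesive day 3 below adhesive day 14, by a step of 0.43 log2 units that was within the pooled SD of 0.53.

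Does the level of these genes change between the 2 days on the mean of both implants? Dpt rose the most, by 3.98-fold on the mean of both implants (log2 1.99, SE 0.31, edgeR quasi-likelihood test with Benjamini-Hochberg adjustment, adjusted p = 0.000411). Eln rose 2.60-fold (log2 1.38, SE 0.37, edgeR adjusted p = 0.0110) and Cthrc1 2.40-fold (log2 1.26, SE 0.42, edgeR adjusted p = 0.0293). Fmod had a log2 difference of 0.71 (SE 0.32), which did not pass (edgeR adjusted p = 0.0948). Thus 3 of the 4 members were called higher on day 14 on this mean, where 7.51% of the 14601 genes tested were. The median log2 difference of all genes was 0.02. These calls draw in part on the non-adhesive day 14 libraries, which also entered the choice of members. The mean joined unequal log2 changes. Eln had 0.60 (SE 0.52) at adhesive against 2.16 (SE 0.54) at non-adhesive implants, and Cthrc1 had 0.66 (SE 0.59) against 1.87 (SE 0.60).

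The call for Dpt held under all 23 alternatives, with edgeR, DESeq2 or limma adjusted p between 1.82e-09 and 0.00304. That for Cthrc1 was near the threshold. It was lost in limma-voom (log2 1.03, limma adjusted p = 0.105), and leaving out 1 library ended it in 9 of 16 cases (edgeR adjusted p between 0.0535 and 0.0628), namely adhesive day 3 replicates 1, 2 and 3, non-adhesive day 3 replicates 1 and 4, adhesive day 14 replicates 2 and 3, and non-adhesive day 14 replicates 2 and 3. Fmod passed without non-adhesive day 3 replicate 1 (log2 1.06, edgeR adjusted p = 0.00298). With a replicate block, Eln (edgeR adjusted p = 0.0503) and Cthrc1 (edgeR adjusted p = 0.0733) were not called, though replicate numbers were not shown to pair libraries. With library totals in place of TMM, the median log2 difference of all genes was -0.48 in place of 0.02, the calls of all genes split into 433 higher and 2128 lower, against 1097 and 734 with TMM, and Eln and Cthrc1 were no longer called (log2 0.91 and 0.81).

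The choice of members bears directly on the day difference of each implant taken alone, so these values have no test. Over all genes, 8.12% were called at adhesive and 9.07% at non-adhesive implants. At adhesive implants, the log2 difference of day 14 over day 3 was 1.71 (SE 0.44) for Dpt, against 0.60 (SE 0.52) for Eln, 0.66 (SE 0.59) for Cthrc1 and 0.15 (SE 0.46) for Fmod. With library totals in place of TMM, these values were 1.17 for Dpt, 0.045 for Eln, 0.08 for Cthrc1 and -0.38 for Fmod. With 1 library left out, they lay between 1.28 and 2.05 for Dpt, 0.28 and 0.93 for Eln, 0.39 and 1.12 for Cthrc1, and -0.02 and 0.31 for Fmod, each lowest without adhesive day 14 replicate 2 and, but for Fmod, highest without adhesive day 3 replicate 4. At non-adhesive implants, the log2 difference of day 14 over day 3 with TMM was 2.27 (SE 0.44) for Dpt, 2.16 (SE 0.54) for Eln, 1.87 (SE 0.60) for Cthrc1 and 1.26 (SE 0.44) for Fmod. All 4 adhesive libraries of day 14 exceeded all 4 of day 3 for Dpt alone, a placing that 12.6% of all genes shared. At non-adhesive implants too only Dpt had this placing, shared by 9.14% of genes, and Eln and Cthrc1 gained it without replicate 4 of day 14.

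The implant difference on day 14 minus that on day 3 was -1.56 (SE 0.74) for Eln, -1.22 (SE 0.83) for Cthrc1, -1.12 (SE 0.63) for Fmod and -0.56 (SE 0.60) for Dpt, on the log2 scale and with no test. These values moved with single libraries. With 1 left out, that of Eln lay between -1.88 and -1.09, that of Cthrc1 between -1.56 and -0.70, that of Fmod between -1.90 and -0.82, and that of Dpt between -0.99 (without adhesive day 14 replicate 2) and -0.17 (without adhesive day 3 replicate 4). Those of Cthrc1 were lowest without non-adhesive day 14 replicate 4 and closest to 0 without adhesive day 3 replicate 4, and those of Fmod were lowest without non-adhesive day 3 replicate 1.

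**Figure D2:**
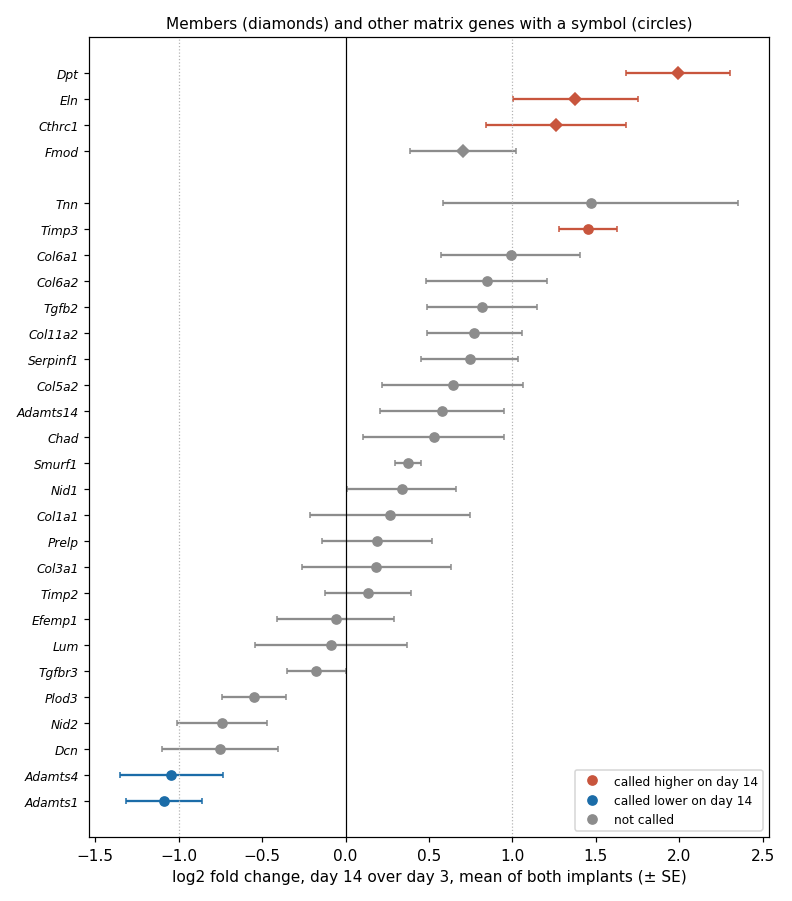
Log2 fold change of day 14 over day 3 (mean of both implants, ± SE, edgeR on 16 libraries) for the 4 members (diamonds, top) and the 24 other matrix genes with a symbol (circles), with dotted lines at a log2 fold change of -1 and 1. Dpt, Eln and Cthrc1 are called higher, as is Timp3 of the others, and Adamts4 and Adamts1 are called lower.

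The pathway around the members was read from 7 lists of matrix genes (elastic fibre, leucine-rich proteoglycans, fibrillar and type VI collagens, collagen processing, matrix glycoproteins, the TGF-beta pathway, and proteases with their inhibitors). Symbols were at hand only for 2007 genes, those with the lowest identifiers, so that 24 of 132 listed genes other than the members could be found, and all 24 were tested. Between days on the mean of both implants, 1 of the 24 was called higher and 2 lower (7.51% and 5.03% of all genes), with a median log2 difference of 0.30, against 0.02 over all genes.

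Of the 6 collagen genes with a symbol, the family that forms the bulk of a fibrous capsule, 0 were called between days, and 1 had an adjusted p of at most 0.05 with a log2 fold change under 1. Col1a1, the main chain of type I collagen, had a log2 difference of 0.27 (SE 0.48, edgeR adjusted p = 0.697), and Col3a1, of type III collagen, had 0.19. Among the small leucine-rich proteoglycans to which Fmod belongs, Lum (lumican) had -0.09, Dcn (decorin, the partner of dermatopontin) -0.75 and Prelp 0.19, none called. Efemp1, a fibulin and the only other elastic fibre gene with a symbol, had -0.06. The 3 called genes are all outside these families and were named after their values were seen. They are Timp3, an inhibitor of metalloproteinases that is bound to matrix (1.45, SE 0.18, edgeR adjusted p = 6.6e-05), and the proteoglycan-cleaving proteases Adamts1 (-1.09) and Adamts4 (-1.04).

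Between implants, 0 of the 24 were called on either day, where 0.266% of all genes were called on day 14 and 0.0% on day 3. With so few calls over all genes, a count of 0 among 24 says little about them. The number of genes called on day 14 also depended on the method (36 in edgeR, 474 in DESeq2). On day 14, 21 of 24 had a negative log2 difference of adhesive over non-adhesive, as did 54.3% of all genes. The median of the 24 was -0.83, where that of all genes was -0.04. On day 3, 19 of 24 were negative, as were 51.5% of all genes. The median of the 24 was -0.66, where that of all genes was -0.01. The 4 members had differences between -2.88 and -1.70 on day 14, and Col1a1 had -1.53 (SE 0.73). All 6 collagen genes were negative that day, with a median of -1.52. In mean CPM, adhesive first, the type VI collagen genes Col6a1 and Col6a2 had 399.3 against 1384 and 415.1 against 1276. The matrix glycoprotein gene Tnn, with a wide spread, had 5.71 against 37.3, and Dpt had 276.4 against 900.4. Differences of the size seen for Dpt were thus not limited to the members.

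RNA of fibroblasts was read from 6 markers with a symbol (Pdgfra, Pi16, Dcn, Lum, Col1a1 and Col3a1 of 11 listed), none of which was at 0 in any library. The markers did not move alike. All 6 were lower at adhesive implants on day 14, but Pi16 averaged 50.2 against 53.7 CPM and Col1a1 1191 against 3443 CPM. Between days, on the mean of both implants, 3 were higher and 3 lower, none called. Their mean log2 CPM was 7.92 ± 1.00 at adhesive implants and 8.93 ± 1.18 at non-adhesive implants on day 14, and 8.21 ± 0.72 at adhesive implants and 9.12 ± 0.49 at non-adhesive implants on day 3 (SD, n = 4 each). Their summed level was 1865 to 11340 CPM at adhesive and 2173 to 16150 CPM at non-adhesive implants on day 14, and 3192 to 9848 CPM and 5025 to 14130 CPM on day 3. In non-adhesive replicate 4 of day 14 the sum was 2173 CPM, the lowest of its group. That library also had the highest muscle sum of all (21890 CPM) and the lowest sum of the leukocyte genes Ptprc, Itgb2 and Cd48 (84.8 CPM), which are 3 of 16 listed and otherwise ran up to 440.8 CPM. Its tissue makeup and its low Eln, Dpt and Cthrc1 move together, and the part of one in the other was not tested.

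Set against these markers within each library, the members kept part of their implant difference on day 14. For Eln, the log2 level minus that of the markers was -1.18 ± 0.48 at adhesive implants, against 0.52 ± 0.65 at non-adhesive implants, a difference of -1.70 without overlap. For Cthrc1 the relative levels were -3.91 and -2.43, a difference of -1.48 without overlap. Fmod (-1.36) and Dpt (-0.65) overlapped. On day 3 the relative differences were smaller, at -0.47 for Eln, -0.32 for Dpt, -0.61 for Cthrc1 (without overlap) and -0.00 for Fmod. These values are a description of libraries from which the members were chosen. The share of all genes without overlap relative to these markers was not computed, so how unusual such a placing is cannot be said. With Col1a1 alone in place of the 6 markers, the day 3 differences of all 4 were above 0, from 0.06 for Cthrc1 to 0.66 for Fmod, and those of day 14 were -1.13 for Eln, -0.91 for Cthrc1, -0.79 for Fmod and -0.08 for Dpt.

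**Figure D3:**
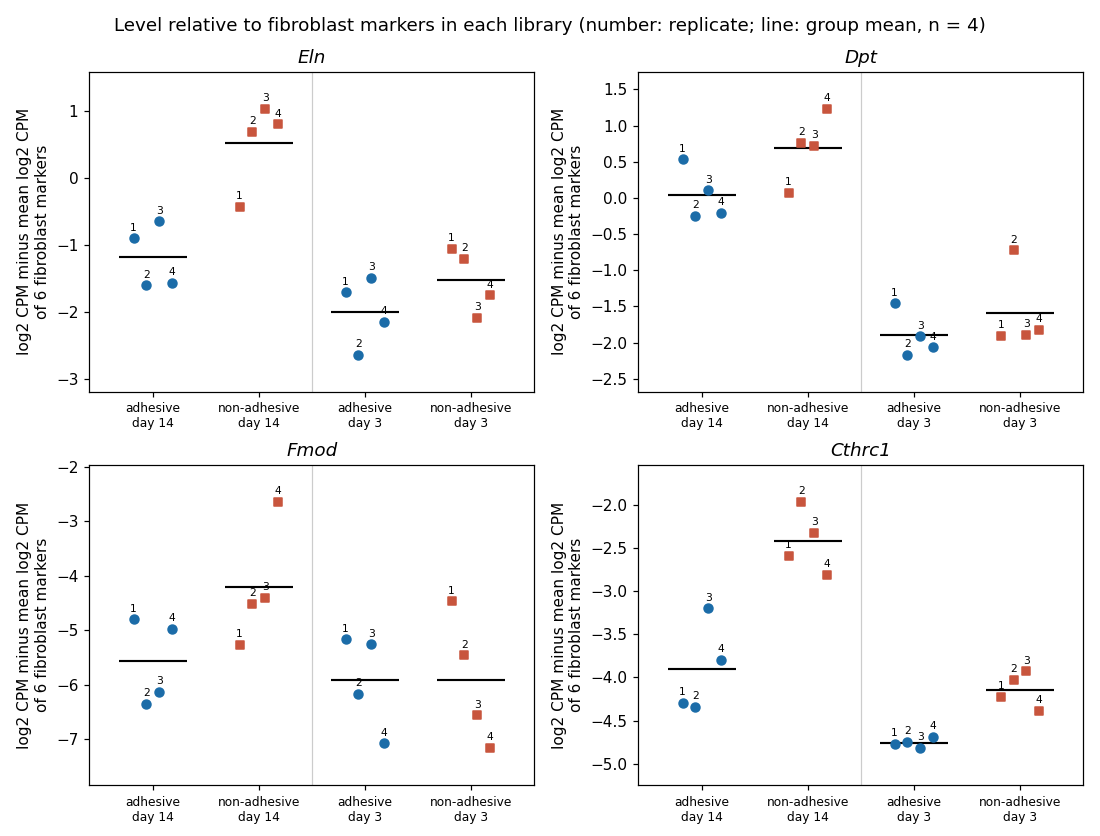
Log2 CPM of each member minus the mean log2 CPM of 6 fibroblast markers (Pdgfra, Pi16, Dcn, Lum, Col1a1 and Col3a1) in the same library. Blue circles are adhesive and red squares non-adhesive implants, numbers are replicates and lines are group means (n = 4). On day 14, Eln and Cthrc1 have no overlap between implants, whereas all Dpt values of day 14 lie above those of day 3 at both implants.

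Between days, relative to the same markers, Dpt stood 1.95 log2 units higher on day 14 at adhesive implants and 2.28 higher at non-adhesive implants, both without overlap. Cthrc1 had 0.85 and 1.72, likewise without overlap. Eln had 0.82 at adhesive implants, with overlap, and 2.04 at non-adhesive implants, without. Fmod overlapped at both (0.35 and 1.71). Here too, the share of all genes without overlap relative to the markers was not computed.

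The pair Eln and Dpt, the 2 most abundant members, split by implant on day 14. On day 14, log2 CPM of Eln minus that of Dpt was -1.44, -1.35, -0.75 and -1.35 at adhesive implants, against -0.50, -0.08, 0.31 and -0.44 at non-adhesive implants. All 4 adhesive libraries lay below all 4 non-adhesive libraries, by 1.05 log2 units on the means. The low non-adhesive replicate 4 was inside its group on this measure. On day 3, the means were -0.09 at adhesive and 0.06 at non-adhesive implants, with overlap. Beneath adhesive implants, Dpt was thus higher on day 14 relative to Eln (day 14 minus day 3, -1.13 without overlap). This ratio was singled out after the values of all pairs of members were seen. Every other pair of members overlapped between implants on day 14. The share of gene pairs that split in this way was not computed.

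**Figure D4:**
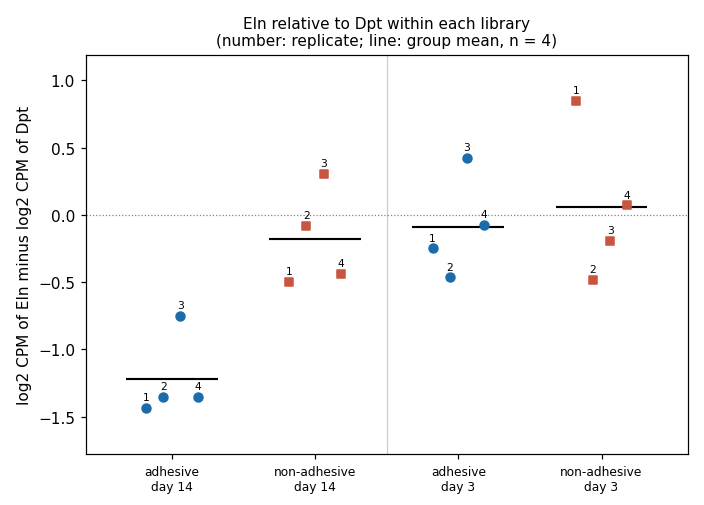
Log2 CPM of Eln minus log2 CPM of Dpt within each library, by implant and day, with blue circles for adhesive and red squares for non-adhesive implants, replicate numbers, and lines at the group means (n = 4). The 4 adhesive libraries of day 14 lie between -1.44 and -0.75, below all 4 non-adhesive libraries of that day (-0.50 to 0.31).

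Likeness to other genes was measured as the root mean square difference of centred log2 CPM over the 16 libraries, among 1908 genes with a symbol and a mean of at least 1 CPM. Nearest to Eln were Cthrc1 (0.50), Ccdc80, a secreted matrix protein (0.56), Zfpm2, a cofactor of GATA factors (0.59), Gal3st4, a sulfotransferase (0.61), and Dpt (0.62), where the median over all candidates was 1.49. Nearest to Cthrc1 were Zfpm2 (0.37), Eln (0.50), Gal3st4 (0.52), Ccdc80 (0.55) and Col6a2 (0.56), a chain of type VI collagen. Dpt was most like Itgbl1, a secreted relative of integrin beta chains (0.45), Ccdc80 (0.52), the glycosyltransferase Galnt16 (0.55), C1qtnf2, a relative of adiponectin (0.55), and Clec3b, the plasminogen-binding protein tetranectin (0.60).

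Fmod had other neighbours, all farther away: Disp1, which releases hedgehog ligands (0.65), Ppl, periplakin (0.65), Mylk, the myosin light chain kinase of smooth muscle (0.66), Igfbp7, a secreted growth factor-binding protein (0.68), and the potassium channel Kcnk2 (0.73). Between members, Eln and Cthrc1 were closest (0.50) and Fmod and Cthrc1 farthest apart (1.01). The members were chosen on implant differences in these same libraries, which partly sets their likeness to each other and to genes with such differences. Of the 5 genes nearest to each member, 3 recurred for Eln and Cthrc1 and 1 for Dpt and Fmod when only the 8 libraries of day 14 were used, and 0 or 1 with those of day 3.

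Mylk was the only marker with a symbol in the list for myofibroblasts and smooth muscle. It was at 41.9 to 60.1 CPM at non-adhesive implants on day 14. That was above its range at adhesive implants on day 14 (13.4 to 26.8 CPM) and at both implants on day 3 (17.4 to 34.7 CPM). In non-adhesive replicate 4 of day 14, Fmod was 22.8 CPM and Mylk 41.9 CPM, both above all libraries of adhesive implants. How far myofibroblasts or smooth muscle cells contribute to Fmod was not tested.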

How the data were processed

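The authors sequenced poly(A)-selected RNA, used Cutadapt for trimming, STAR for alignment and featureCounts for counts per gene, and the values used here are those deposited counts, one table per library, not normalized. Versions, beyond bcl2fastq 2.17, and the strand setting of counting were not given in the sources used here, and the sources name different genomes. Gene symbols came from the names in the study's supplementary list, held in part. Counts of 16 libraries (13852126 to 24858976 per library) were fitted with edgeR 4.0.16 in R 4.3.3 (filterByExpr, TMM, robust quasi-likelihood F test), per day for the implant differences and over all 16 libraries for day differences. P-values were adjusted over all genes tested, and calls needed an adjusted p of at most 0.05 and an absolute log2 fold change of at least 1. Log2 CPM used a prior count of 2. DESeq2 1.42.0, limma 3.58.1, other scalings, no filter, no fold limit, the replicate block and each library left out were tried. The scripts were tested on simulated data. Members and lists were chosen with earlier results of these data known. Named genes were the members, their 5 nearest genes, and up to 3 of each list by mean CPM, plus those of 3 lists that were called. 1 gene of the lists is not reported here.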

Additional observations from a re-analysis of the deposited data

Results flagged for a closer look

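Of 16 groups of 4 libraries (4 genes in 4 groups), 2 held a library that stood far from the other 3 by Dixon's ratio of gap to range, above its 95% critical value, where chance gives about 1 in 20. Dpt was 140.6 CPM in adhesive day 3 replicate 4, with the other 3 libraries between 56.9 and 70.7 CPM. Fmod was 25.9 CPM in non-adhesive day 3 replicate 1, with the other 3 between 4.78 and 7.65 CPM.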

How the results depend on the processing

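The mean day difference of each member kept its sign under all alternatives. Some values given without a test did not. At adhesive implants, the day difference of Fmod was 0.15 with TMM and -0.38 with library totals. The day 3 implant differences relative to fibroblast markers turned positive against Col1a1 alone. The count of genes called between implants on day 3 was 0 in edgeR and 69 in DESeq2. That of day 14, 36, was 474 in DESeq2, 216 with all 16 libraries in one fit and 6 with library totals, and between 1 and 1151 with 1 library left out. The value 1151 was without non-adhesive replicate 4, and every other library but adhesive replicate 2 brought it to 5 or fewer. With no limit on the fold change, day differences gave 5246 genes (mean of both implants), 2174 (adhesive) and 2561 (non-adhesive), and library totals gave 2602 (adhesive, against 1186). With the fold limit, these 3 comparisons gave 1831, 1186 and 1325 genes, and with 1 library left out the counts ran from 1578 to 2125, from 462 to 1570 and from 744 to 1740. For the members, the mean day difference ran from 1.14 to 1.52 for Eln, from 1.77 to 2.13 for Dpt, from 0.53 to 1.06 for Fmod and from 1.11 to 1.47 for Cthrc1, that of Fmod at non-adhesive implants from 0.94 to 2.01, and the day 3 implant difference of Fmod from -1.51 to -0.44. Cthrc1 also lost its call in limma-voom (1.03, limma adjusted p = 0.105) and with library totals (0.81, edgeR adjusted p = 0.172), as did Eln with totals (0.91, edgeR adjusted p = 0.0885), an alternative chosen after seeing the data. Without both replicates numbered 4 that stood apart (adhesive day 3 and non-adhesive day 14, also chosen after), Eln had 1.71, Dpt 2.31, Fmod 0.72 and Cthrc1 1.69. The cause of these changes was not tested.

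Replicate numbers were not shown to pair libraries: correlations of same-numbered libraries ran from -0.31 to 0.31 on day 3 and from -0.34 to 0.48 on day 14. With a replicate block, 0 genes were called between implants on day 14, and the mean day differences were 1.20 for Eln (edgeR adjusted p = 0.0503) and 1.16 for Cthrc1 (edgeR adjusted p = 0.0733), both past the threshold without it. It changed no call of the mean day difference for Dpt or Fmod.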
